A study of Mus musculus with 18 samples.

Results

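The 37 genes described here encode membrane carriers with which the intestinal epithelium takes up or hands on sugars, peptides, amino acids, bile acids, ions, monocarboxylates, iron, vitamins, nucleosides and fatty acids. They were picked by name from the solute carrier (Slc) families by a rule that uses no measured value, though earlier results of these data were known when it was set, and are 37 of the 32286 features in the count tables, which hold 339 other Slc genes. By substrate they fall into 7 groups: 3 sugar carriers, 13 peptide and amino acid carriers, 3 bile acid carriers, 10 carriers of ions, anions and monocarboxylates, 4 of iron and vitamins, 2 of nucleosides and 2 of fatty acids.

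Absorption is the work of the enterocyte. A carrier on the brush border drives its substrate into the cell with a sodium or proton gradient, and a second carrier on the basolateral side lets it out towards the blood. Enterocytes are born from dividing progenitors in the crypt and switch on different carriers as they climb the villus, and some carriers belong to one stretch of gut, such as the bile acid carriers of the ileum.

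The labels put all mice in a C57Bl6 background, at 60 to 65 days old. They carried the Lgr5-GFP-CreERT2 knock-in allele, received 1 intraperitoneal tamoxifen injection of 70 mg/kg, and were analysed 5 days later by 3′ single-cell RNA sequencing of GFP+ cells sorted from ileal crypts. The Lgr5+ WT libraries came from Lgr5-GFP-CreERT2 mice and the Lgr5+ Setdb1-KO libraries from Lgr5-GFP-CreERT2/Setdb1lox/lox mice, in which tamoxifen lets Cre remove exon 3 of Setdb1, a histone methyltransferase, in Lgr5+ stem cells. The lineage-traced WT (Lgr5-GFP-CreERT2/nTnG) and Setdb1-KO (Lgr5-GFP-CreERT2/Setdb1lox/lox/nTnG) mice also carried a reporter at the ROSA locus that switches from tdTomato to GFP in Cre-expressing cells and stays on in their progeny. Each group had 2 libraries. Because Cre is driven by Lgr5, both the deletion and the trace start in stem cells, and the WT mice of both experiments carry Cre and were given tamoxifen too. The number of mice behind a library is not given in the sources used here, so p-values measure the spread between these libraries.

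The libraries held 16881518 to 81876035 UMIs (unique molecular identifiers, 1 for each captured transcript end), and 2894 to 11423 barcodes a library passed the limits of 1000 (Lgr5+) or 500 (lineage-traced) to 18000 UMIs and under 5% mitochondrial UMIs. No 2 libraries shared more than 34 of these barcodes. Traced WT replicate 2 stood apart: its kept barcodes held 29.7% of its UMIs, against 53.3 to 74.9% elsewhere, and its median barcode had 32.3% Paneth cell marker UMIs, close to the 37.8% of its near-empty droplets, so traced genotype results are also given without it. Paneth markers took 34.1 and 31.5% of kept UMIs in the traced WT libraries and 7.36 and 4.98% in the traced Setdb1-KO libraries. Large-intestine markers, chiefly Car1, were found in the traced libraries, summing in WT to 558 and 657 CPM (UMIs per 1000000 UMIs of the library or class, not divided by transcript length, the unit of all levels here) and to 190 and 269 in Setdb1-KO, against 1.34 to 2.60 in the Lgr5+ libraries. The ileal marker Fabp6 was present in every library, but was lower in the traced Setdb1-KO libraries than in traced WT, with values given below. The liver markers Alb, Serpina1a and Apoa2, looked at because a protocol text of the series names livers, summed to 2.67 to 6.45 CPM. Setdb1 itself stood at 11.3 and 9.93 CPM in Lgr5+ WT and 5.32 and 6.21 in Lgr5+ Setdb1-KO, but at 6.11 and 4.21 in traced WT and 10.4 and 7.85 in traced Setdb1-KO. A 3′ count lies outside exon 3 and does not measure its removal, which the study checked by PCR on sorted cells of both models, data not used here. The counts thus do not check the traced genotype, and its libraries are called "labelled Setdb1-KO" below.

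Each barcode was put in a class by the UMIs of cell type markers, none of which is a member. The enterocyte class (Apoa1, Alpi, Sis and 13 other markers at 15000 or more CPM) held 96 and 252 barcodes in Lgr5+ WT, 281 and 549 in Lgr5+ Setdb1-KO, 1012 and 284 in traced WT, and 56 and 158 in the traced libraries labelled Setdb1-KO. It is a range of a score and not a type with sharp edges. Between 17.7 and 24.7% of barcodes in the Lgr5+ libraries and 46.5 to 70.1% in the traced libraries reached no class. From 19 to 158 enterocyte-class barcodes a library lay between 15000 and 20000 CPM of markers, and a further 41 to 351 lay just below the limit, at 10000 to 15000. In traced WT 102 of 1012 and 19 of 284 class barcodes lay between 15000 and 20000, against 24 of 56 and 26 of 158 in labelled Setdb1-KO. The part of this difference in the genotype results within the class was not tested.

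Most of the carriers were enterocyte genes in these data. In the Lgr5+ libraries 27 of the 37 had their highest mean level in the enterocyte class, and for 19 of these the 4 enterocyte values lay above all 4 values of the next class. Of 14291 features with 20 or more UMIs in these classes, 11.9% were highest in the enterocyte class and 5.81% without overlap. In the traced libraries the enterocyte class was highest for 28, and for 6 of them without overlap with the next class, against 12.6 and 1.24% of 12312 features. These means pool both genotypes. Taken by library, the enterocyte class was highest in 1 of the 4 traced libraries for Slc43a2. It was highest in 2 of the 4 for Slc2a5, Slc6a20a, Slc7a8, Slc10a2, Slc5a8 and Slc28a2. Enterocyte-class barcodes held 10.3 to 34.2% of all member UMIs in the Lgr5+ libraries, where they held 2.18 to 11.5% of all UMIs. In traced WT they held 44.4 and 30.3% of member UMIs and 8.11 and 7.10% of all UMIs, but in labelled Setdb1-KO 2.87 and 7.28% of member UMIs and 1.25 and 2.39% of all UMIs. Summed over the 37 members, the enterocyte class reached 1583 to 2055 CPM in the Lgr5+ libraries and 3402 and 2466 in traced WT. In the near-empty droplets of the same libraries, a measure of free RNA, the sum was 154 to 194 in the Lgr5+ libraries and 536 and 449 in traced WT.

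**Figure D1:**
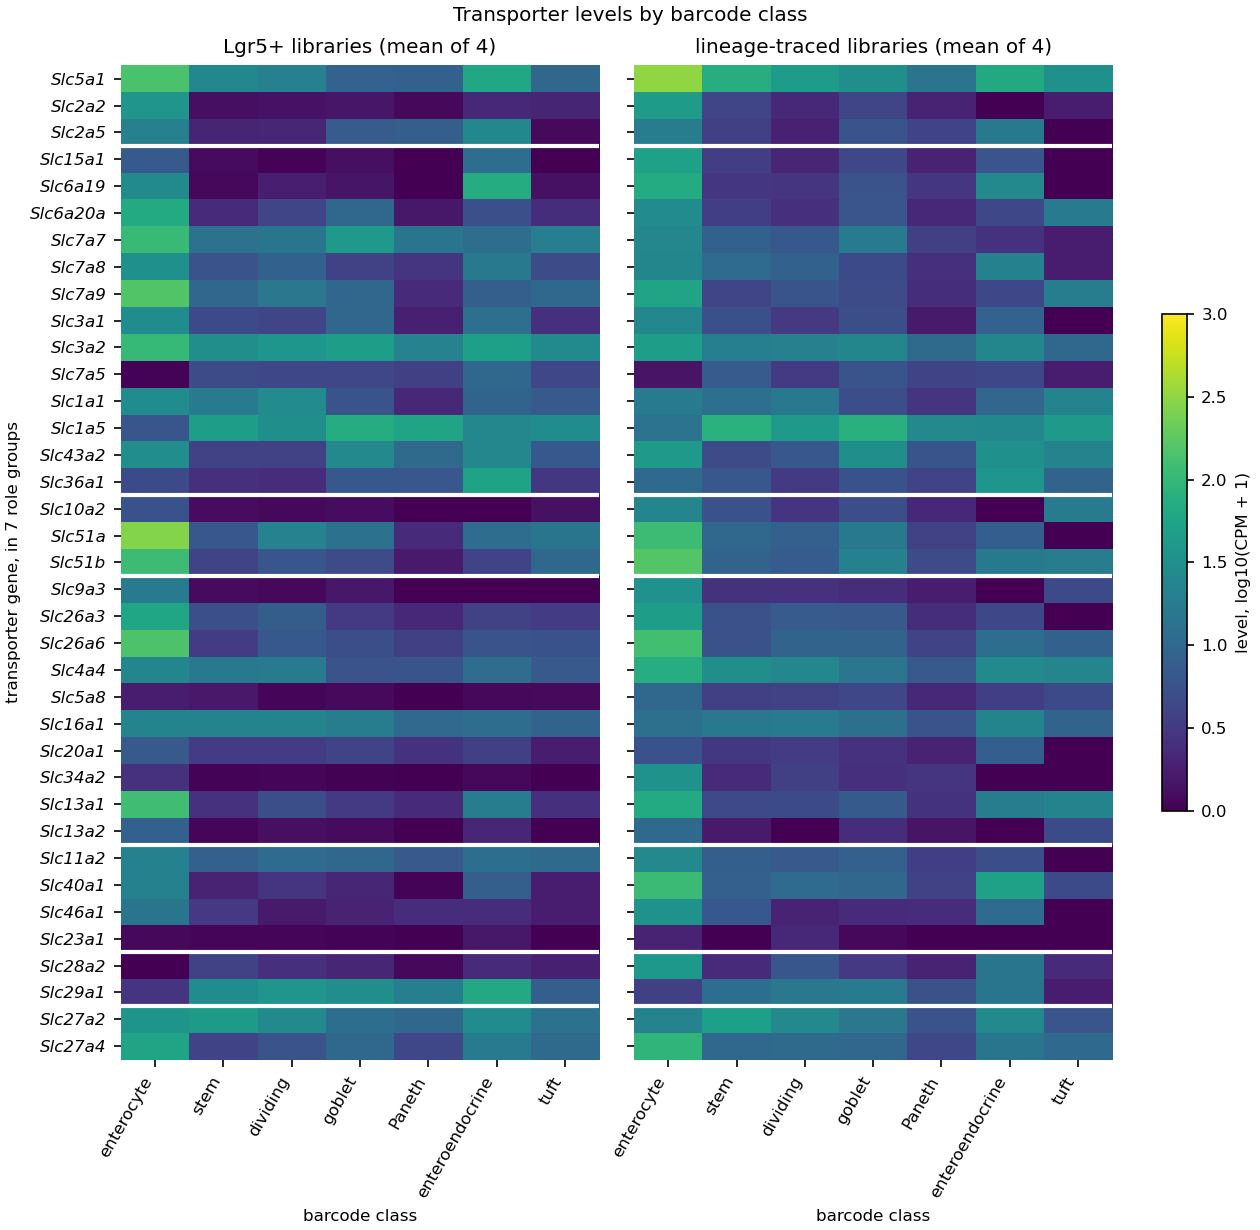
Mean level of each of the 37 carriers (rows, in 7 substrate groups divided by white lines) in 7 barcode classes (columns) of the Lgr5+ and the lineage-traced experiment, as log10 of CPM plus 1, averaged over 4 libraries each. The enterocyte column is the brightest for 27 carriers in the Lgr5+ panel and 28 in the traced panel, while Slc1a5 is darker in that column than in the goblet and stem columns of both panels.

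The fit across all genes compared the classes directly. Of the 31 members tested in the Lgr5+ libraries, the quasi-likelihood test of edgeR, with p-values adjusted by the Benjamini-Hochberg method, called 26 higher in enterocytes than in the stem class, where 28.9% of all features tested were higher. It called 27 higher against the dividing class (28.6% of all features), 25 against goblet (25.8%), 23 against Paneth (24.2%), 24 against enteroendocrine (29.7%) and 27 against tuft (23.7%). It called 3 members lower than in the stem (35.2% of all features lower), dividing (32.6%), goblet (34.3%) and tuft (27.8%) classes, 4 than in the Paneth class (28.2%) and 5 than in the enteroendocrine class (37.2%). In the traced libraries 25 members were tested, and 20 were higher in enterocytes than in the stem (24.8% of all features), dividing (26.7%), goblet (19.6%), Paneth (22.3%) and tuft (14.8%) classes and 18 than in the enteroendocrine class (19.5%). There 2 were lower than in the stem (21.0% of all features lower), dividing (22.7%), goblet (16.2%) and Paneth (17.0%) classes, 1 than in the tuft class (7.42%), and 0 than in the enteroendocrine class (9.57%), with 2 at an unadjusted p under 0.05. Without traced WT replicate 2, 16 to 21 of 26 members were higher, by class, where 13.5 to 19.5% of features were. These contrasts take both genotypes together, with no term for a class difference that varies with genotype. In traced enterocytes the members summed to 3402 and 2466 CPM in WT and 674 and 691 in labelled Setdb1-KO.

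These splits depend on the scaling. With library totals in place of TMM scaling, 13 members were higher and 2 lower than in the traced enteroendocrine class (7.18% of features higher, 26.9% lower), and 23 and 5 than in the Lgr5+ one (14.6 and 60.5%), where the median of all features moved from -0.22 to -0.97 (log2). Against the Paneth class 27 members were then higher and 3 lower in the Lgr5+ libraries (47.5 and 9.94% of features) and 23 and 1 in the traced ones, where most features were higher (86.1 and 1.26%). Against the tuft class the counts were 27 and 3 (13.9 and 46.0% of features) and 19 and 1 (8.67 and 13.6%), in the same order. Against the stem class 26 and 3 members (22.7 and 42.5% of features) and 20 and 3 (17.2 and 32.4%) were called, and against the dividing class 26 and 3 (20.6 and 41.8%) and 20 and 2 (20.3 and 32.3%).

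The members that were not highest in enterocytes are described next. Slc1a5, a glutamine carrier of growing cells, stood at 72.9, 63.8, 75.9 and 73.9 CPM in the goblet class of the 4 Lgr5+ libraries and at 4.77, 2.65, 5.66 and 7.97 in their enterocytes. The groups are far apart, and the enterocyte class was lower by a log2 fold change of -3.63 (SE 0.18, adjusted p = 3.09e-20, edgeR). Slc29a1, an equilibrative nucleoside carrier, was lowest in the enterocyte class too, at 1.19 to 2.23 CPM, and highest in the enteroendocrine class, at 46.8, 68.1, 74.995 and 67.4. Slc7a5, the large neutral amino acid carrier that pairs with Slc3a2, had a single UMI in all Lgr5+ enterocytes and 9.36, 8.34, 10.97 and 6.99 CPM in the enteroendocrine class.

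In the Lgr5+ libraries the hormone-secreting enteroendocrine class held some nutrient carriers at levels above those of enterocytes. Slc6a19, the neutral amino acid carrier of the brush border, had 86.1 and 62.5 CPM in the enteroendocrine class of Lgr5+ WT and 69.5 and 66.1 in that of Lgr5+ Setdb1-KO, against 16.7 to 34.4 in the enterocytes of the 4 libraries. None of these values overlap. The log2 fold change of enterocytes over enteroendocrine barcodes was -0.56 (SE 0.19, adjusted p = 0.0086, edgeR) on the TMM scale and -1.33 (SE 0.20, adjusted p = 2.70e-07) with library totals. Slc36a1, a proton-coupled amino acid carrier, stood at 63.7, 52.8, 56.7 and 42.0 in the enteroendocrine class and at 2.39 to 4.404 in enterocytes. The fructose carrier Slc2a5 (18.7, 19.5, 38.4 and 19.7 against 28.6, 7.43, 14.5 and 26.1) and the peptide carrier Slc15a1 (13.1, 19.5, 5.49 and 6.99 against 7.16, 2.12, 5.35 and 9.88) overlapped between these classes, and their log2 fold changes turned with the scaling, from 0.31 and 0.13 on the TMM scale to -0.45 and -0.62 with library totals, none of them called. In traced WT the order was the other way for Slc6a19 (27.6 and 40.5 in the enteroendocrine class against 146 and 112 in enterocytes) and Slc15a1 (13.8 and 0 against 101 and 66.2), on at most 2 UMIs of either gene in the enteroendocrine class of a library. The vitamin C carrier Slc23a1 had at most 5 UMIs in any whole Lgr5+ library, so its place among classes is not given.

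The stem class was highest for the nucleoside carrier Slc28a2 and the fatty acid carrier Slc27a2 in the Lgr5+ libraries. Slc28a2 had 5.13 and 3.83 CPM in Lgr5+ WT stem barcodes and no UMI in the enterocyte class of the same libraries, which allows up to 3.58 and 1.59 (3 UMIs of the class total, counting error only). It behaved otherwise in the traced WT libraries, where the enterocyte class held 97.9 and 54.0 CPM. Slc27a2 stood at 52.1, 46.1, 36.3 and 33.9 in the stem class of the Lgr5+ libraries and at 30.8 to 38.2 in their enterocytes, which overlap. In the traced libraries Slc1a5 (54.5, 94.3, 110 and 67.3, WT before labelled Setdb1-KO) and Slc27a2 (38.96, 40.4, 72.0 and 40.8) were highest in the stem class, as was Slc7a5 (1.30, 13.5, 4.50 and 6.05), on 1 to 8 UMIs a library. Slc29a1 was highest in the goblet class there (13.1, 23.0, 17.9 and 11.4). Slc36a1 (68.9, 0, 41.7 and 34.2), Slc16a1, a lactate carrier (27.6, 0, 41.7 and 17.1), and Slc20a1, a phosphate carrier (27.6 in WT replicate 1 and 0 in the others), were highest there in the enteroendocrine class, and Slc1a1, a glutamate carrier (0, 65.6, 14.5 and 5.42), in the tuft class. These places rest on classes of as few as 24 and 8 barcodes a library and at most 10 UMIs of any of these genes.

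The 3 bile acid carriers work as 1 route. Slc10a2 takes bile acids up from the ileal lumen with sodium, and Slc51a and Slc51b form the heteromer that releases them on the basolateral side. In the Lgr5+ enterocytes Slc51a stood at 305, 256, 282 and 252 CPM (WT replicates 1 and 2, then Setdb1-KO replicates 1 and 2) and Slc51b at 141, 89.7, 109 and 114. Slc10a2 was thin there, at 15.5, 0, 1.57 and 1.91, and higher in traced WT enterocytes, at 41.2 and 47.1. The other named Lgr5+ classes had means of at most 20.7 for Slc51a and 9.28 for Slc51b, while barcodes without a class, some of them just under the enterocyte limit, stood at 73.9 to 102 for Slc51a and 31.6 to 39.7 for Slc51b in the 4 libraries.

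The promoters of these 3 carriers are shown because all 3 were lower in the traced comparison below, from 250 bases before to 50 bases after the start of the gene in RefSeq (GRCm38.p6), 5′ to 3′ on the gene's strand. Capitals mark exact matches on either strand to 5 short motifs of intestinal transcription factors: the HNF4 core CAAAGTC, the HNF1 half-site GTTAAT, the CDX2 site TTTATG, the GATA site AGATAAG and the nuclear receptor half-site AGGTCA. The windows are chr8:5105238-5105537, chr16:32487830-32488129 and chr9:65422724-65423023, all on the minus strand.
Slc10a2: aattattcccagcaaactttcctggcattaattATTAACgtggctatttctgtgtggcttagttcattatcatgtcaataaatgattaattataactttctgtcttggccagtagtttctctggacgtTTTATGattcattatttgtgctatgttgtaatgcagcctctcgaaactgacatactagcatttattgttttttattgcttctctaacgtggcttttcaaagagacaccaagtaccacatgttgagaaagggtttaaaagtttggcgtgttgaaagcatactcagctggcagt
Slc51a: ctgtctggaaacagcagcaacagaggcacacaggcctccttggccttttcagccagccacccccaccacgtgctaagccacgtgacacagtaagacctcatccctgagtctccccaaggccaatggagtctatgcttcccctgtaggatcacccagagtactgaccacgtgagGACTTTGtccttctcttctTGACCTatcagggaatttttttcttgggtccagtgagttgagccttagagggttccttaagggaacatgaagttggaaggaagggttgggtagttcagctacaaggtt
Slc51b: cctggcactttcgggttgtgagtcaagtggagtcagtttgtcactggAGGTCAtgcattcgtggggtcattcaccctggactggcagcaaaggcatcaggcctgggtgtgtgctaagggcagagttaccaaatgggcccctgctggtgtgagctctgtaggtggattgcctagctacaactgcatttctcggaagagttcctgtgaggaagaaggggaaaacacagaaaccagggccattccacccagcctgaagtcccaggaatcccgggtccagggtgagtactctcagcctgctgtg
The Slc10a2 window held 1 HNF1 half-site, with its first base 217 bases before the start, and 1 CDX2 site, 122 bases before it. The Slc51a window held 1 HNF4 core 77 bases and 1 nuclear receptor half-site 58 bases before the start, and the Slc51b window held 1 nuclear receptor half-site 203 bases before it. No match overlapped another, and no motif was found in all 3 windows.

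A promoter window was found for 31 of the 37 members. The HNF1 half-site was in 6 of the 31 (Slc10a2, Slc26a3, Slc28a2, Slc36a1, Slc3a1 and Slc6a20a), against 7.20% of all 27025 mouse promoters of the same length. The HNF4 core was in 3 (4.36% of all promoters), the CDX2 site in 3 (12.2%), the GATA site in 1 (3.08%) and the nuclear receptor half-site in 8 (16.0%). These are counts of letters, and no binding was measured here.

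Within the enterocyte class, the carriers differed along an axis of villus landmark genes. Each barcode was placed by the share of villus top landmarks (Apoa4, Apob, Ada, Nt5e and 6 others) among its top and bottom landmark UMIs (the bottom list includes Reg3b, Reg3g, Lypd8 and Ccl25), with no member on either list, though Apoa1 and Apoa4 are also among the enterocyte markers. Traced WT enterocytes spanned the whole axis, with 285, 205, 249 and 273 barcodes in 4 bins of equal width in replicate 1 and 115, 47, 60 and 62 in replicate 2. The Lgr5+ enterocytes lay at its lower end, with median shares of 0.060 to 0.118 against 0.5 and 0.346 in traced WT. Of the 20 members with 20 or more UMIs in both traced WT libraries, 16 were higher in the top bin (share 0.75 to 1) than in the bottom bin (0 to 0.25) in both (40.7% of 2631 features), 13 of them by over 2-fold in both (18.3%), and 2, Slc10a2 and Slc7a7, were lower in both (39.1%). For Slc7a7 the bottom and top bins were nearly level in replicate 1, at 22.2 and 21.7 CPM, and its top bin in replicate 2 held 1 UMI. No test was made over bins of the same libraries.

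Steep climbs were seen for a nucleoside, an iron, a fatty acid and an anion carrier. Slc28a2, which concentrates purine nucleosides, went from 5.56, 45.0 and 71.7 to 339 CPM from bottom to top in replicate 1, and from 5.95, 11.4 and 55.0 to 313 in replicate 2, on 3 and 2 UMIs in the bottom bins. Slc40a1 (ferroportin), the only known iron exporter, went from 74.1 to 609 and from 38.6 to 482. Slc27a4, the enterocyte's fatty acid carrier, went from 46.3 to 401 and from 50.5 to 417. Slc26a6, an apical anion exchanger, went from 85.2 to 547 and from 38.6 to 391. All 4 were higher at the top in both libraries, and Slc28a2, Slc40a1 and Slc27a4 rose at every step in both. The glucose carrier Slc5a1 was already at 367 and 235 in the bottom bin and reached 963 and 834 in the top bin. The peptide carrier Slc15a1 went from 38.9 to 230 and from 38.6 to 143, and Slc6a19 from 70.4 to 273 and from 26.8 to 352.

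The bile acid carriers did not share this pattern. Slc51b stood at 337, 281, 233 and 221 CPM from bottom to top in replicate 1 and at 276, 398, 234 and 339 in replicate 2, with no common direction. Slc10a2 went from 61.2 (33 UMIs) to 40.4 (13 UMIs) in replicate 1 and from 53.5 (18 UMIs) to 13.0 (1 UMI) in replicate 2. It was lower in the top bin than in the bottom bin in both, on 64 and 27 UMIs over all bins. In replicate 1 the third bin was lowest, at 20.9. Slc51a was 1.66 and 1.52 times higher in the top bin than in the bottom bin.

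**Figure D2:**
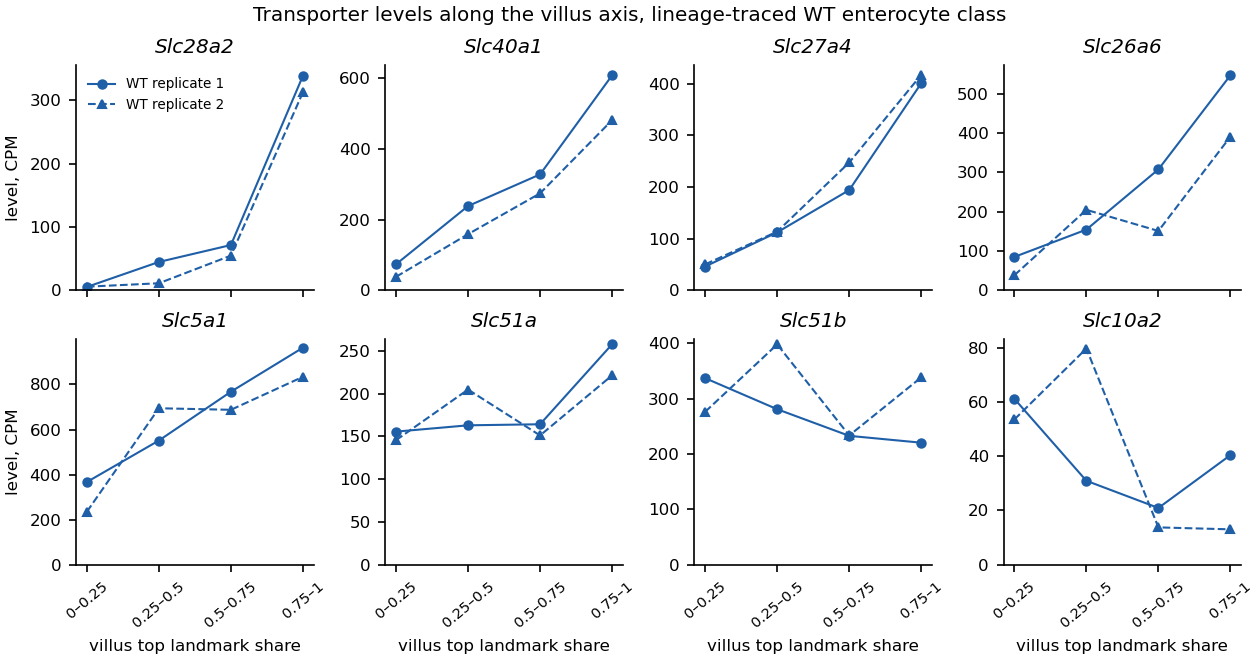
Levels (CPM, linear axes from 0) of 8 carriers in traced WT enterocyte-class barcodes, in 4 bins of the villus top landmark share; solid lines with circles are WT replicate 1 and dashed lines with triangles WT replicate 2. Slc28a2, Slc40a1 and Slc27a4 rise at every step in both libraries, to 339 and 313 for Slc28a2, while Slc51b and Slc10a2 do not rise together from the first bin to the last.

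In the lineage-traced experiment the carriers were lower in the libraries labelled Setdb1-KO. Over all kept barcodes the 37 members summed to 622 and 579 CPM in WT and 295 and 227 in labelled Setdb1-KO. In the near-empty droplets of these libraries the sum was 536 and 449 in WT and 239 and 240 in labelled Setdb1-KO. The part of free RNA in the differences over all kept barcodes was not tested. Of the 36 members tested, the same test in edgeR called 30 lower and 0 higher, in a fit that called 7.19% of 12205 features lower and 1.54% higher. No other member had an unadjusted p under 0.05 in edgeR. DESeq2 called 24 lower and 0 higher. The closing section gives its smaller count of all features without a split by direction, so the 24 are not set against a share. The median log2 fold change was -2.29 over the members tested and 0.01 over all features. A rare gene enters this fit chiefly where WT holds it, so the counts are a description. Enterocyte-class barcodes were 12.9 and 7.32% of kept barcodes in WT and 1.16 and 1.54% in labelled Setdb1-KO. Such sums mix how many cells of a type were sorted with how much each of them holds, and these cannot be told apart in them.

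**Figure D3:**
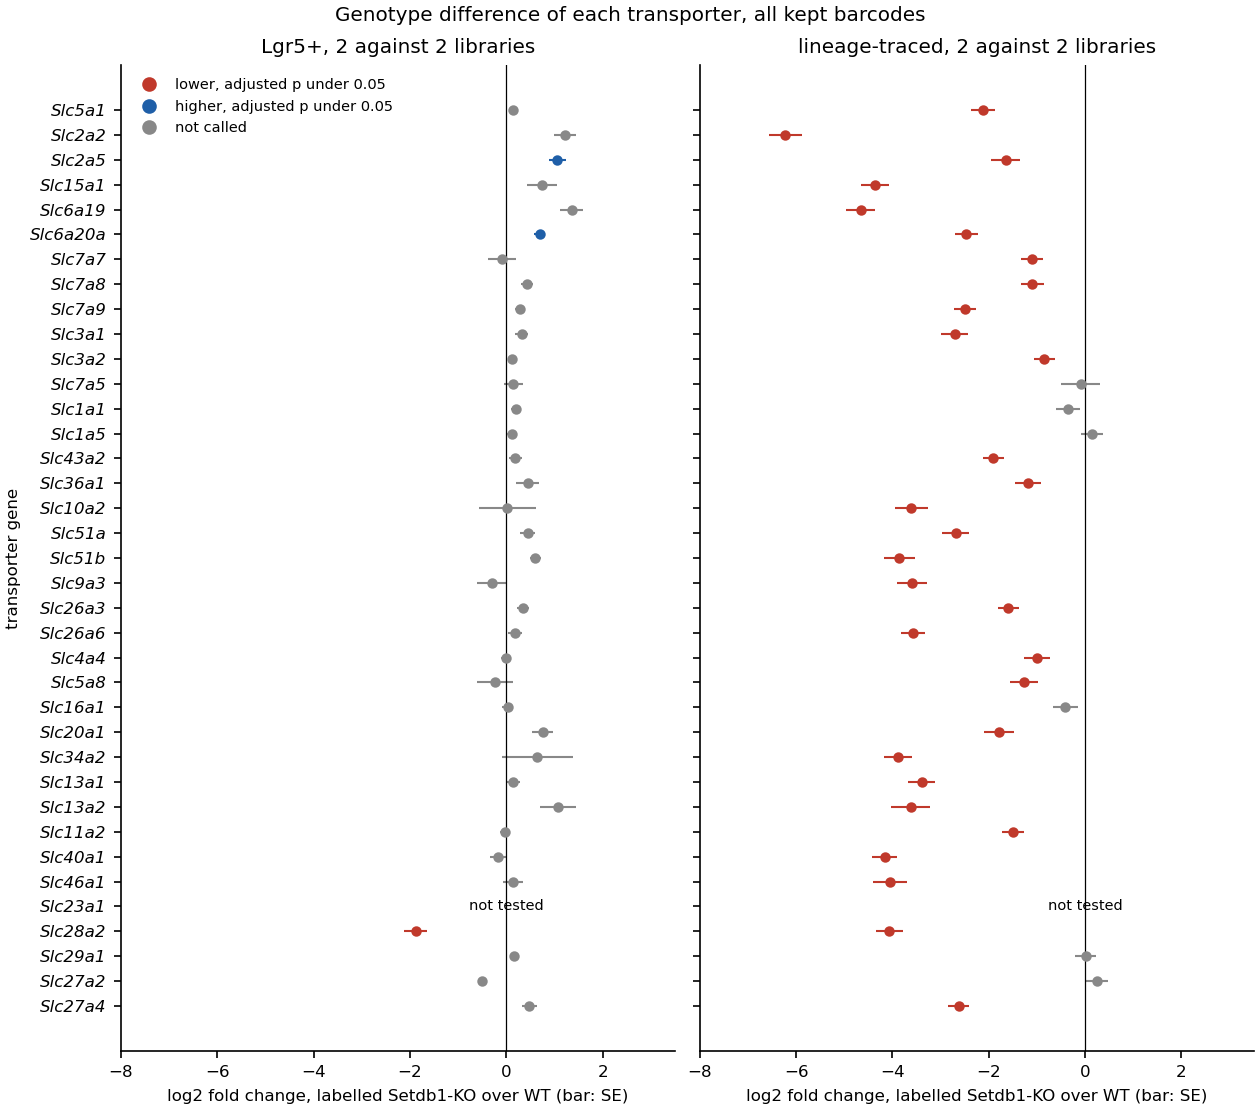
Log2 fold change of each carrier, Setdb1-KO (as labelled) over WT, over all kept barcodes of the Lgr5+ (left) and lineage-traced (right) libraries, 2 against 2, from edgeR on TMM-scaled UMIs; bars are standard errors, and red and blue points have an adjusted p under 0.05. In the right panel 30 points are red and lie left of 0, from -0.85 (Slc3a2) to -6.22 (Slc2a2), and in the left panel 1 point is red (Slc28a2) and 2 are blue (Slc2a5 and Slc6a20a).

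All 3 sugar carriers were lower. Slc5a1, which takes up glucose and galactose with sodium, stood at 103 and 83.6 CPM in traced WT and 32.1 and 29.9 in labelled Setdb1-KO (log2 fold change -2.12, SE 0.25, adjusted p = 0.00014, edgeR). Slc2a2, the facilitative glucose carrier that lets sugar out of the enterocyte, stood at 12.9 and 11.9 against 0.11 and 0.26 (-6.22, SE 0.35, adjusted p = 3.62e-07). Each WT value lay above both values of the other group. Slc2a2 had 1 and 7 UMIs in the libraries labelled Setdb1-KO, so it entered this fit chiefly through WT. The fructose carrier Slc2a5 stood at 4.49 and 3.09 against 2.45 and 1.38, and its call (-1.65, SE 0.31, adjusted p = 0.0043) was lost without WT replicate 1 (adjusted p = 0.12).

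Among the 13 peptide and amino acid carriers 10 were lower. Slc6a19 stood at 17.8 and 18.1 CPM in WT and 0.67 and 1.12 in labelled Setdb1-KO (log2 fold change -4.66, SE 0.30, adjusted p = 8.97e-07). Slc15a1, the proton-driven carrier of dietary di- and tripeptides, stood at 12.5 and 9.77 against 0.67 and 0.79. Slc3a2, the heavy chain shared by several amino acid exchangers, changed least of those called, from 23.3 and 20.4 to 18.6 and 16.5 (-0.85, SE 0.21, adjusted p = 0.026). Not called were Slc1a5, at 36.4 and 30.8 in WT and 60.6 and 47.9 in labelled Setdb1-KO, Slc7a5 and Slc1a1.

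All 3 bile acid carriers were lower. Slc51b stood at 40.9 and 60.4 CPM in WT and 4.11 and 5.54 in labelled Setdb1-KO (log2 fold change -3.86, SE 0.32, adjusted p = 6.87e-06), and Slc51a at 28.2 and 39.2 against 6.67 and 8.003 (-2.69, SE 0.28). Slc10a2 stood at 9.09 and 10.4 against 2.00 and 0.71. The 2 groups do not overlap for any of the 3.

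Of the 10 carriers of ions, anions and monocarboxylates 9 were lower. Slc26a6 stood at 32.7 and 25.7 CPM in WT and 4.22 and 3.03 in labelled Setdb1-KO (log2 fold change -3.58, SE 0.25, adjusted p = 1.69e-06). Slc4a4, a basolateral sodium bicarbonate carrier, overlapped, at 28.9 and 24.4 against 26.8 and 13.3, and its call (-1.003, SE 0.26, adjusted p = 0.033) was lost without either WT library (adjusted p = 0.15 and 0.052). The sodium-phosphate carrier Slc34a2 (11.2 and 7.92 against 1.11 and 0.82), the sodium-sulfate carrier Slc13a1 (17.98 and 20.4 against 2.00 and 2.88) and the sodium-proton exchanger Slc9a3 (6.43 and 6.80 against 1.11 and 0.60) did not overlap. The levels of Slc5a8 overlapped, and its call was lost in 6 of 13 alternative settings. Slc16a1 was not called, at 13.7 and 9.77 against 17.8 and 9.13.

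The iron and folate carriers were lower as well. Slc40a1 stood at 38.3 and 29.9 CPM in WT and 3.00 and 2.51 in labelled Setdb1-KO (log2 fold change -4.17, SE 0.26, adjusted p = 6.08e-07). Slc46a1, the proton-coupled folate carrier, stood at 10.3 and 8.41 against 0.33 and 0.97, and Slc11a2, the brush border iron importer, at 10.9 and 8.78 against 5.34 and 4.71. Slc23a1 was too rare to be tested, with 17 UMIs in WT and 2 in labelled Setdb1-KO.

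Of the nucleoside and fatty acid carriers, 1 of each pair was lower. Slc28a2 stood at 12.5 and 10.4 CPM in WT and 1.33 and 0.79 in labelled Setdb1-KO, and Slc27a4 at 25.3 and 22.6 against 6.22 and 5.09. Slc29a1 (7.47 and 7.30 against 12.2 and 9.50) and Slc27a2 (12.7 and 13.2 against 27.6 and 17.7) were not called. The 6 members tested and not called (Slc1a5, Slc7a5, Slc29a1, Slc27a2, Slc16a1 and Slc1a1) were all highest outside the enterocyte class in the traced libraries, as were Slc36a1 and Slc20a1, which were called lower.

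The Paneth share of the UMIs bears on the scale of these values. With library totals in place of TMM scaling the median of all features moved to 0.54, 24 members were lower and 2 higher (27.2% of all features higher, 4.02% lower), Slc1a5 (0.68, adjusted p = 0.046, edgeR) and Slc27a2 (0.79, adjusted p = 0.034) became the 2 higher ones, Slc3a2, Slc4a4, Slc5a8, Slc36a1, Slc7a7 and Slc7a8 were no longer called lower, and Slc16a1, Slc1a1 and Slc7a5 turned from negative to positive without being called (edgeR in each case). Without traced WT replicate 2, 27 members were lower and 0 higher, where 5.0% of all features were lower, and without replicate 1, 23 were lower (4.37%). A fit without Paneth and Defa genes was 1 of 13 alternatives, under all of which 22 of the 30 members stayed called. Beyond that fit, the part of Paneth cell RNA and of large-intestine marker RNA, chiefly Car1, in these differences was not tested.

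Within the enterocyte class of the traced libraries the carriers differed too. The 37 members summed to 3402 and 2466 CPM in WT enterocytes and 674 and 691 in those labelled Setdb1-KO, against 239 and 240 in the near-empty droplets of the latter. Of 28 members tested edgeR called 19 lower and 0 higher, with 20 at an unadjusted p under 0.05, all lower. DESeq2 called 16 lower and 0 higher. Its smaller count of all features in the closing section is not split by direction, so the 16 are not set against a share. In the edgeR fit 16.2% of 4864 features were lower and 10.6% higher. Its median log2 fold change was -1.93 over the members tested and -0.03 over all features. A rare gene enters this fit chiefly where WT holds it, so the counts are a description, and a count of 0 in labelled Setdb1-KO replicates 1 and 2 still allows up to 26.6 and 4.69 CPM (3 UMIs of the class total). With at least 2000 UMIs a barcode the count was 11 of 23 tested (6.04% of features lower): Slc13a1, Slc15a1, Slc26a6, Slc4a4 and Slc7a9 were then not called (adjusted p = 0.062 to 0.33) and Slc34a2, Slc3a1 and Slc6a20a not tested. Without traced WT replicate 2 the count was 20 (10.2% of features lower), and without replicate 1 it was 13 (5.77%).

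**Figure D4:**
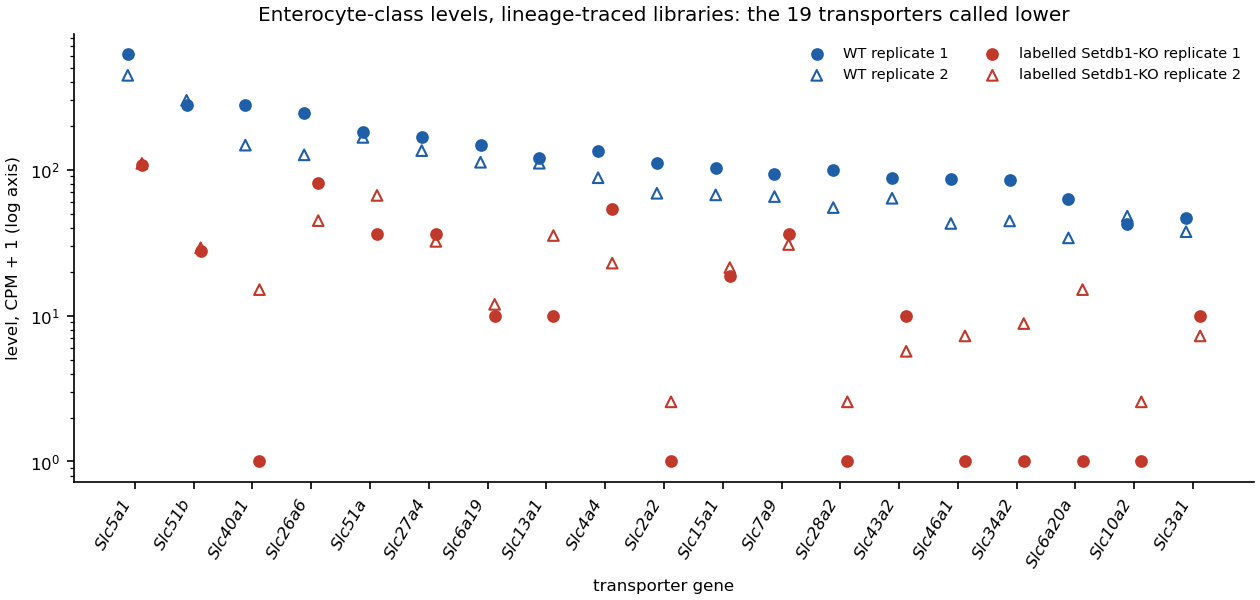
Level of the 19 carriers called lower in the enterocyte class of the traced libraries (CPM plus 1, log axis), with blue points for WT and red points for labelled Setdb1-KO, circles for replicate 1 and triangles for replicate 2. Both blue points lie above both red points for every gene, and a red circle at 1 stands for no UMI in that library's 56 enterocyte-class barcodes.

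For the sugar carriers, Slc5a1 stood at 619 and 443 CPM in WT enterocytes and 106 and 109 in those labelled Setdb1-KO (log2 fold change -2.24, SE 0.43, adjusted p = 5.24e-06, edgeR). Slc2a2 had 209 UMIs in WT (110 and 68.0 CPM) and 1 in labelled Setdb1-KO (0 and 1.56 CPM), a ratio of 73.9 with an exact 95% interval of 13.1 to 2935 that covers counting error only. Slc2a5 was not called, at 27.7 and 12.2 against 17.7 and 10.9.

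For the amino acid and peptide carriers, 6 of the 10 tested were lower. Slc6a19 stood at 146 and 112 CPM in WT and 8.87 and 10.9 in labelled Setdb1-KO (log2 fold change -3.48, SE 0.52, adjusted p = 1.15e-09). Slc43a2, a facilitative carrier of large neutral amino acids, stood at 87.0 and 62.7 against 8.87 and 4.69, and Slc15a1 at 101 and 66.2 against 17.7 and 20.3. Slc6a20a, an imino acid carrier, stood at 61.9 and 33.1 against 0 and 14.1. Both chains of the cystine carrier were lower. Slc3a1 stood at 45.7 and 36.6 against 8.87 and 6.26 (-2.51, SE 0.59), and its partner Slc7a9 at 92.8 and 64.5 against 35.5 and 29.7 (-1.28, SE 0.42, adjusted p = 0.014). Not called were Slc3a2 (58.6 and 57.5 against 35.5 and 32.8), Slc7a7, Slc7a8 and Slc1a1.

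The bile acid route was lower at both ends. Slc51b stood at 278 and 298 CPM in WT enterocytes and 26.6 and 28.2 in those labelled Setdb1-KO (log2 fold change -3.28, SE 0.48, adjusted p = 6.59e-10). Slc51a stood at 180 and 166 against 35.5 and 65.7 (-1.49, SE 0.40, adjusted p = 0.0023). Slc10a2 had 91 UMIs in WT (41.2 and 47.1 CPM) and 1 in labelled Setdb1-KO, a ratio of 32.2 with an exact 95% interval of 5.64 to 1286. Fabp6, the cytosolic bile acid binding protein of the ileum, stood at 3607 and 3892 against 26.6 and 79.8. The part of gut region in the bile acid carrier differences, here and over all kept barcodes, was not tested.

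Among the remaining carriers, Slc40a1 stood at 278 and 146 CPM in WT and 0 and 14.1 in labelled Setdb1-KO (log2 fold change -4.08, SE 0.52, adjusted p = 1.22e-12), and Slc46a1 at 85.7 and 41.8 against 0 and 6.26. Slc28a2 had 183 UMIs in WT and 1 in labelled Setdb1-KO, a ratio of 64.7 with an exact 95% interval of 11.5 to 2571. Slc27a4 stood at 167 and 134 against 35.5 and 31.3. These are carriers that were high in the top landmark bin in traced WT. The anion carriers Slc26a6 (245 and 125 against 79.8 and 43.8), Slc13a1 (119 and 110 against 8.87 and 34.4) and Slc4a4 (133 and 87.2 against 53.2 and 21.9) and the phosphate carrier Slc34a2 (83.8 and 43.6 against 0 and 7.82) were lower. Slc26a3, the chloride bicarbonate exchanger, was not called, at 61.9 and 29.6 against 44.3 and 46.9, nor were Slc9a3, Slc11a2 and Slc27a2.

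The villus landmark share differed between these enterocytes, while position itself was not measured. An enterocyte-class barcode held a median of 24 and 28 landmark UMIs in traced WT and 9 and 26.5 in labelled Setdb1-KO. The top landmark Npc1l1 is also on a list of other absorption genes given below, and was called lower over all kept traced barcodes. Whether genotype changed the other landmark genes was not examined. The median landmark share was 0.5 and 0.346 in traced WT and 0 and 0.036 in labelled Setdb1-KO. Within the class Paneth markers summed to 88324 and 146497 CPM against 23886 and 16241, and large-intestine markers to 245 and 657 against 44.3 and 14.1. A fit without Paneth and Defa genes was among the alternatives of the closing section, and the part of both was otherwise not tested. When only barcodes with a share under 0.25 were kept, 9 of 21 members tested were lower (4.92% of features), namely Slc51b, Slc10a2, Slc2a2, Slc43a2, Slc5a1, Slc34a2, Slc40a1, Slc51a and Slc6a19. With a share under 0.1, 5 of 8 were lower (6.01%), namely Slc10a2, Slc51b, Slc5a1, Slc51a and Slc13a1. The median share was then 0.050 and 0.049 in WT and 0 in both labelled Setdb1-KO libraries, so the shares were closer and not equal. A rare gene enters these 2 fits too chiefly where WT holds it, so the counts are a description. Among those called under 0.25, Slc2a2 had 39 UMIs in WT and 1 in labelled Setdb1-KO, Slc10a2 51 and 1, Slc43a2 49 and 2, and Slc34a2 36 and 2. Without traced WT replicate 2, 8 of 27 were lower under 0.25 (2.25% of features) and 4 of 16 under 0.1 (2.03%), Slc51a not among them (adjusted p = 0.24 and 0.077).

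The bile acid carriers were lower under both limits with all 4 libraries. Among barcodes with a share under 0.1, Slc51b stood at 353 and 424 CPM in WT and 22.5 and 22.9 in labelled Setdb1-KO (log2 fold change -4.21, SE 0.43, adjusted p = 3.22e-06), and Slc51a at 175 and 220 against 45.1 and 57.2 (-1.996, SE 0.41, adjusted p = 0.0045). Slc10a2 had 30 UMIs in WT and none in labelled Setdb1-KO, at least 12.04-fold lower by the exact 95% limit of the ratio, which covers counting error only. By contrast Slc28a2 had 5 UMIs in WT and none in labelled Setdb1-KO under a share of 0.25, where no difference was detectable at this depth, and Slc26a6 had a log2 fold change of 0.04 under a share of 0.1.

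**Figure D5:**
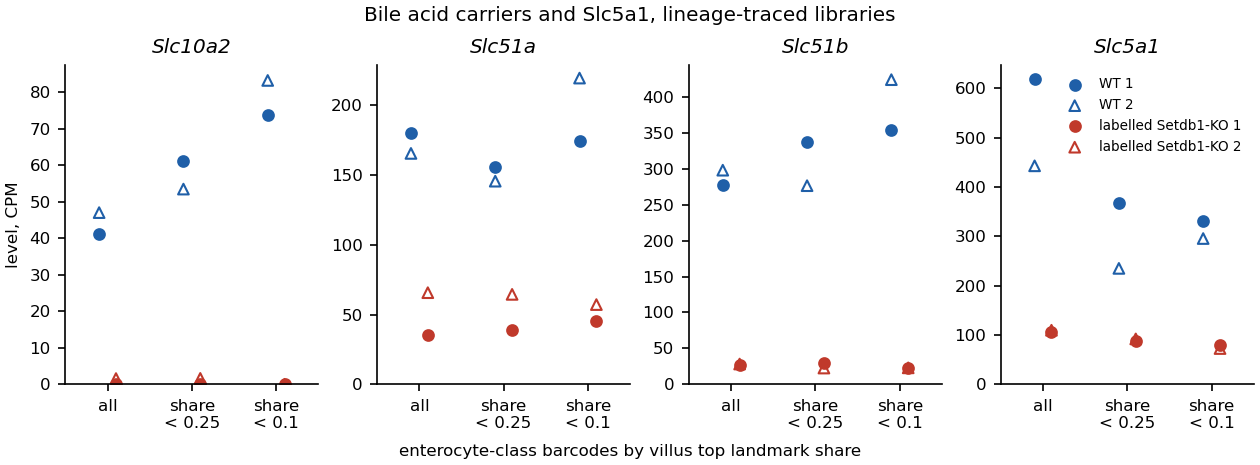
Levels (CPM, linear axes from 0) of the 3 bile acid carriers and Slc5a1 in all enterocyte-class barcodes of the traced libraries and in those with a villus top landmark share under 0.25 and under 0.1, blue for WT and red for labelled Setdb1-KO, 1 point a library. Slc10a2 and Slc51b are as high or higher in WT under a share of 0.1 (353 and 424 for Slc51b) as in the whole class, and no red point reaches a blue one.

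In the crypt classes of the traced libraries fewer members could be tested. In the dividing class edgeR called 5 of 19 lower and 0 higher (1.35% of features lower, 0.361% higher), with 9 at an unadjusted p under 0.05, all lower. DESeq2 called 1 lower and 0 higher. Its smaller count of all features in the closing section is not split by direction, so this count is not set against a share. Slc40a1 stood there at 11.4 and 25.3 CPM in WT and 2.17 and 1.60 in labelled Setdb1-KO (log2 fold change -3.09, SE 0.50, adjusted p = 2.28e-07), Slc26a6 at 13.8 and 13.3 against 2.72 and 1.76, and Slc51b at 12.4 and 7.99 against 2.72 and 2.39. Slc13a1 (20 and 10 UMIs) and Slc27a4 were the other two. Without traced WT replicate 1 a single member was lower (0.635% of features), and without WT replicate 2 or labelled Setdb1-KO replicate 2, 3 were (0.592 and 0.88% of features). All 5 stood at or below the level of free RNA in the near-empty droplets of traced WT (28.2 and 18.2 for Slc40a1, 37.1 and 20.0 for Slc26a6, 34.2 and 53.7 for Slc51b), except Slc40a1 in WT replicate 2. So these levels are not read as expression in dividing cells, and the part of free RNA was not tested. In the stem class 7 members were tested, edgeR called 0 (1.16% of features lower, 0.313% higher), with 2 at an unadjusted p under 0.05, and DESeq2 called 0, with 4.

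In the Lgr5+ experiment few members passed the test. Over all kept barcodes they summed to 433 and 409 CPM in WT and 533 and 425 in Setdb1-KO. Of 36 tested, 2 were higher and 1 lower (0.812 and 0.527% of 13662 features), and the median log2 fold change was 0.19, against -0.01 over all features. Slc6a20a stood at 6.75 and 6.85 in WT and 11.3 and 10.5 in Setdb1-KO (log2 fold change 0.69, SE 0.11, adjusted p = 0.044, edgeR), and Slc2a5 at 2.31 and 2.65 against 5.69 and 4.73 (1.06, SE 0.18, adjusted p = 0.047). Enterocyte-class barcodes were 2.01 and 4.11% of kept barcodes in Lgr5+ WT and 9.71 and 4.81% in Setdb1-KO, and enteroendocrine-class barcodes 2.29 and 2.79% and 6.53 and 4.18%. Within enterocytes Slc6a20a stood at 76.4 and 60.0 against 59.1 and 75.6 and Slc2a5 at 28.6 and 7.43 against 14.5 and 26.1, which overlap. The part of the class shares in these 2 calls was not tested. Slc28a2 was the lower one, at 2.60 and 2.65 against 0.65 and 0.73 (-1.88, SE 0.24, adjusted p = 0.023). None of the 3 calls was kept when WT replicate 1 or WT replicate 2 was left out, which left 0 members called by edgeR, with 10 and 12 at an unadjusted p under 0.05. Without Setdb1-KO replicate 2, 3 were higher and 1 lower (2.71 and 1.03% of features). DESeq2 called 5 higher and 2 lower with all libraries (1.49 and 0.909% of features).

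Slc28a2 was lower in the Lgr5+ stem class as well, at 5.13 and 3.83 CPM in WT and 1.52 and 1.12 in Setdb1-KO (log2 fold change -1.74, SE 0.35, adjusted p = 0.045), on 93 and 21 UMIs. It was the only 1 of 27 members called there (0.422% of features lower, 0.518% higher), and leaving out either WT library ended the call. Without Setdb1-KO replicate 1, 2 members were called lower there (0.661% of features), and without replicate 2, 1 higher (1.64%). In the dividing class it stood at 2.02 and 2.56 against 0.61 and 0.84, where its adjusted p was 0.11 and edgeR called 0 of 29 members (0.449% of features higher, 0.423% lower), with 6 at an unadjusted p under 0.05, and DESeq2 called 0, with 3. Without Setdb1-KO replicate 1, 2 members were higher and 2 lower there (1.8 and 1.89% of features). Slc27a2 stood at 52.1 and 46.1 in WT stem barcodes and 36.3 and 33.9 in Setdb1-KO and was not called (-0.44, SE 0.11, adjusted p = 0.10).

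In the Lgr5+ enterocyte class edgeR called 0 of 30 members (0.234% of 8128 features higher, 0.111% lower), with 9 at an unadjusted p under 0.05, and DESeq2 called 0, with 4. The 37 members summed to 2055 and 1589 CPM in WT and 1583 and 1590 in Setdb1-KO. Slc5a1 stood at 165 and 144 against 91.8 and 141, Slc26a6 at 191 and 145 against 126 and 114, and Slc13a1 at 158 and 121 against 94.99 and 98.8. The WT values lay above the Setdb1-KO values for all 3, and none of the 3 passed the test over all features. Leaving out WT replicate 2 gave 6 members lower (1.38% of features), and leaving out WT replicate 1 gave 1 lower and 1 higher (0.966 and 1.51% of features). Without Setdb1-KO replicate 1, 2 members were lower (0.34% of features), and without replicate 2, 1 was higher and 1 lower (0.912 and 0.737%).

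The genotype difference itself was compared between the experiments with an interaction term over all 8 libraries. Over all kept barcodes it was more negative in the traced libraries for 27 of 37 members and more positive for 0 (6.07% of 13781 features more negative, 1.51% more positive), and in the enterocyte class for 17 of 34 and 0 (6.58 and 1.53% of 7731 features), by edgeR, with 31 and 21 members at an unadjusted p under 0.05. DESeq2 gave 27 and 12 more negative (3.46 and 1.59% of features) and 0 more positive. The 17 became 6 without traced labelled Setdb1-KO replicate 2 (1.12% of features more negative), 8 without traced WT replicate 1 (2.93%) and 9 without Lgr5+ WT replicate 2 (3.48%). Without traced WT replicate 2 the counts were 26 and 19 (4.35 and 7.3% of features). For Slc51b in enterocytes the log2 fold changes were -3.28 in the traced and -0.02 in the Lgr5+ libraries, and their difference was -3.31 (SE 0.43, adjusted p = 2.56e-05, edgeR). For Slc5a1 they were -2.24 and -0.42 and the difference -1.88 (SE 0.41, adjusted p = 0.0051), and for Slc9a3, -0.86 and -1.13 with a difference of 0.17 (SE 0.52, adjusted p = 0.90). The experiments differ in reporter, sequencing depth and landmark share of the enterocytes as well as in the sort, and these cannot be told apart.

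Other genes of absorption showed how wide the traced difference was. Of the 339 other Slc genes 199 were tested over all kept barcodes, and 50 were lower and 1 higher, with a median log2 fold change of -0.40, in the fit in which 7.19% of all features were lower and 1.54% higher. All 8 sterol and xenobiotic pumps and uptake proteins were lower, among them the sterol half-transporters Abcg5 (14.2 and 16.0 CPM against 5.22 and 2.95) and Abcg8 (12.9 and 11.4 against 3.11 and 3.14). Of 5 tested genes of bile acid handling 3 were lower, the export pumps Abcc2 (47.7 and 43.9 against 7.67 and 5.65) and Abcc3 (11.0 and 9.28 against 6.002 and 5.27), and Fabp6 (762 and 1260 against 124 and 175). The bile acid receptor Nr1h4 was not called, at 7.58 and 8.41 against 7.89 and 5.83. Of the sodium pump and chloride channel list 3 of 7 were lower, and of the iron handling list 2 of 5, Cybrd1 and Heph.

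Within the traced enterocyte class 25 of 62 other Slc genes tested were lower and 1 higher, with a median log2 fold change of -1.03, where 16.2% of all features were lower and 10.6% higher. There all 6 tested pumps were lower, with 3 of 4 bile acid handling genes, 4 of 6 of the sodium pump and chloride list and 1 of 3 of the iron list, Heph. In the Lgr5+ libraries 214 other Slc genes were tested over all kept barcodes, and 1 was higher and 3 lower (0.812 and 0.527% of all features). Called among these other lists in the Lgr5+ experiment were Npc1l1, the sterol uptake protein and a villus top landmark, which was higher over all kept barcodes (log2 fold change 0.90, adjusted p = 0.030, edgeR) and in the stem class (1.98, adjusted p = 0.017), and Fabp6, which was higher in the stem class (3.14, adjusted p = 0.039). In the Lgr5+ tuft class Fabp6 stood at 144 and 131 CPM in WT and 642 and 98.9 in Setdb1-KO replicates 1 and 2. The part of free RNA in these stem class calls was not tested.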

How the data were processed

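Gene-by-barcode UMI counts of 8 libraries were deposited by the authors as Cell Ranger 6.1.1 output on mm10, 1 raw matrix a library with no cell annotation, and Seurat 5.0.3 is named in the submitters' processing notes. Barcodes with 1000 (Lgr5+) or 500 (lineage-traced) to 18000 UMIs and under 5% mitochondrial UMIs were kept, and doublets were not removed. A barcode entered a class when its markers passed a limit (15000 CPM for enterocytes, 80000 for goblet, 5000 for enteroendocrine, 2000 for tuft and immune, 100000 or, traced, 450000 for Paneth, 1500 for dividing and 2000 for stem) and exceeded the free RNA of the near-empty droplets (ranks 45001 to 90000). UMIs were summed per library and class and tested with edgeR 4.0.16 (quasi-likelihood, filterByExpr, TMM; R 4.3.3) with Benjamini-Hochberg adjustment over all features at 0.05, with DESeq2 1.42.0 as an alternative. Genotype fits compare 2 libraries with 2, for which an exact permutation test of 1 value cannot go below 0.33. Class contrasts take 4 libraries with library as a term, and the interaction takes 8. The fit was also run on simulated counts, which lack the free RNA and Paneth differences between these libraries, and no result here rests on that run. Levels were computed in Python 3.11.15. Library depth was 16881518 to 81876035 UMIs, and intervals and floors of 3 UMIs cover counting error only.

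The rule for members uses no measured value, but members, lists and limits were chosen with earlier results of these data known. Values in every library are given for members called in a genotype comparison at 20 CPM or more in either group, for the highest of each substrate group, and for those not highest in enterocytes, except Slc23a1. Alternatives changed normalization, filters, depth, the class and mitochondrial limits, the replicate block and single libraries. Library totals, 2000 UMIs in the traced libraries, leaving out Paneth and Defa genes, 30000 CPM of enterocyte markers, leaving out barcodes of mixed class and landmark shares under 0.25 and 0.1, also without traced WT replicate 2, were added after seeing the data. The total RNA, H3K9me3 and chromatin accessibility samples were not analysed here. Promoters are from RefSeq (GRCm38.p6), matched by symbol.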

Additional observations from a re-analysis of the deposited data

Results flagged for a closer look

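The genotype difference differed between the experiments, by the interaction term of edgeR over all 8 libraries, for 27 members over all kept barcodes and 17 in the enterocyte class, and 5 of each are given here as differences of log2 fold changes (traced minus Lgr5+). Over all kept barcodes they were -7.46 for Slc2a2, -5.99 for Slc6a19, -5.10 for Slc15a1, -3.99 for Slc40a1 and -3.76 for Slc26a6. In the enterocyte class they were -6.32 for Slc2a2, -4.17 for Slc6a19, -3.68 for Slc40a1, -3.55 for Slc43a2 and -3.31 for Slc51b. The Slc2a2 value in the enterocyte class rests on 1 UMI in the libraries labelled Setdb1-KO. Over all kept barcodes it rests on 1 and 7 UMIs there. Leaving out single libraries gave 6 to 19 members in the enterocyte class, with 6 without traced labelled Setdb1-KO replicate 2. Reporter, depth, landmark share of the enterocytes and Paneth RNA differ between the experiments as well, and cannot be told apart from the sort.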

How the results depend on the processing

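Of the members called, 22 of 30 stayed called under every alternative that tested them in the traced libraries over all kept barcodes, 1 of 19 in the traced enterocyte class (Slc10a2, which could not be tested at or above the median landmark share), 1 of 5 in the traced dividing class, 24 of 27 and 3 of 17 in the interaction (all kept barcodes and enterocyte class), and 0 of 3 and 0 of 1 in the Lgr5+ libraries (all kept barcodes and stem class). In the traced enterocyte class Slc10a2 had 91 UMIs in WT and 1 in labelled Setdb1-KO, so it entered these fits chiefly through WT. In no contrast of the enterocyte class with another class did the count of members called higher move by over 1.5 times. Members lower than in the traced enteroendocrine class, 0, were 2 with library totals or RLE size factors and 1 with a higher minimum or without WT replicate 1. Features did move. With library totals those higher and lower went from 2812 and 3274 to 5516 and 1155 (Lgr5+ Paneth), 3451 and 4322 to 1699 and 7028 (Lgr5+ enteroendocrine), 2749 and 3230 to 1620 and 5345 (Lgr5+ tuft), 1609 and 1222 to 6199 and 91 (traced Paneth), 1405 and 689 to 517 and 1937 (traced enteroendocrine), 1069 and 534 to 624 and 977 (traced tuft) and 1784 and 1509 to 1238 and 2330 (traced stem). RLE size factors gave 734 and 1351 (traced enteroendocrine) and 1227 and 1906 (traced Paneth). Without single libraries the traced contrasts called 800 to 1992 features higher and 251 to 1825 lower. Single left-out libraries gave 21 to 28 members higher in enterocytes in the Lgr5+ contrasts and 13 to 28 in the traced ones. The causes of the shifts below were not tested. For the class results fewer barcodes or features enter some of them.

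Counts of members are given first and counts of all features after, the main value before the alternatives. Lgr5+, all kept barcodes: 3 members, against 0 without a filter on low counts, 7 in DESeq2, 0 with the replicate block, 1 with a higher minimum of UMIs, 5 without Paneth and Defa genes and 0 to 4 without single libraries; 183 features, against 35, 488 and 51 for the first 3, 363 with library totals and 65 to 527 without single libraries. Lgr5+ enterocyte class: 0 members, against 2 without the filter, 5 with the block and 2 to 6 without single libraries; 28 features, against 210, 205, 16 with library totals, 16 with 30000 CPM of enterocyte markers and 99 to 233. Lgr5+ stem class: 1 member, against 2 without the filter, 0 in DESeq2, 2 with the block, 0 with library totals and 0 to 2; 107 features, against 501 without the filter, 490 with the block and 89 to 424. Lgr5+ dividing class: 0 members, against 3 without the filter, 1 with the block, 1 with a mitochondrial limit of 10% and 0 to 4; 101 features, against 650, 238 and 212 to 442.

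Traced, all kept barcodes: 30 members, and 23 to 32 without single libraries; 1066 features, against 652 in DESeq2, 2579 with the block, 3807 with library totals, 609 with 2000 UMIs and 586 to 2449. Traced enterocyte class: 19 members, against 11 with 2000 UMIs, 11 below and 0 at or above the median landmark share of 0.389, 9 and 5 with shares under 0.25 and 0.1 (8 and 4 without WT replicate 2), and 13 to 21; 1307 features, against 750 without the filter, 326 in DESeq2, 855 with a higher minimum, 298 with 2000 UMIs, 308, 7, 183 and 121 by landmark share (111 and 64 for the last pair without WT replicate 2), and 318 to 1819. At or above the median share, where 4 and 7 barcodes remained in the libraries labelled Setdb1-KO, the log2 fold changes of Slc43a2 and Slc34a2 turned to 0.062 and 0.575, and under 0.1 that of Slc26a6 turned to 0.036. Traced stem class: 0 members, against 3 without the filter, 1 with the mitochondrial limit and 0 without single libraries; 85 features, against 37 in DESeq2, 33 with 2000 UMIs and 26 to 136. Traced dividing class: 5 members, against 1 in DESeq2, 3 with 2000 UMIs and 1 to 5; 147 features, against 75 in DESeq2 and 61 to 483. Interaction, all kept barcodes: 27 members, and 24 to 29; 1045 features, against 1568 without the filter, 1729 with the block, 3292 with library totals and 529 to 2118. Interaction, enterocyte class: 17 members, and 6 to 19; 627 features, and 113 to 1141. Replicate numbers are shared by the groups, but correlations of same-numbered libraries were 0.01 to 0.08 (Lgr5+) and 0.10 to 0.31 (traced), and the labels tie a number to no shared animal or day, so the block is given only here. Depth limits the traced classes, the enterocyte class with 56 and 158 barcodes in the libraries labelled Setdb1-KO, and 7 members could be tested in the stem class.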
